A study of Mus musculus with 6 samples.

Results

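Lysosomes are the acidic compartments in which cells break down proteins, lipids, glycans and glycogen, and their genes were followed here in B16F10, a mouse melanoma line that makes pigment. The members were chosen by gene symbol, as every gene on the array whose symbol starts with Atp6v0 or Atp6v1 and 17 named genes for lysosomal enzymes and membrane proteins. Of 19505 genes measured, 38 were members, 22 from the symbol pattern and 16 of the 17 named genes. The genes Ctsd (cathepsin D) and Atp6v0c (the ring subunit of the pump) had no feature with a matching symbol and were not analysed here. One match, Atp6v1fnb, is the neighbour of Atp6v1f and no known pump subunit, so the pattern gave 21 genes of pump subunits.

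Of the 3 groups, each with 2 single-colour Affymetrix arrays, the control had medium only, and the treated cells had 2.5 µM or 40 µM of di-sq (SQ-diEG in the study's title). Exposure lasted 48 h in every group. All 6 arrays come from the same line, with no other genotype or agent in the labels, and the groups follow the titles and treatment fields, and the description fields go against them for all 4 treated arrays. That of replicate 1 at 2.5 µM names medium, as for the controls, and those of the other 3 name APC in place of di-sq. Values are log2 expression after robust multi-array averaging (RMA). Whether both arrays of a group stem from different cultures is not stated. The p-values therefore reflect only array-to-array spread, which may be technical. RNA came from whole wells, where fewer cells of a kind and less RNA per cell cannot be told apart.

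The proton pump, or V-ATPase, moves protons into the lysosome and the melanosome at the cost of ATP. Its V1 sector in the cytosol holds the catalytic subunits, and its V0 sector in the membrane carries the protons. Acid hydrolases such as the cathepsins work at the low pH that results, and heavily glycosylated membrane proteins line the compartment. Transcription factors of the MiT/TFE family, which includes TFEB and the melanocyte factor MITF, bind the CLEAR element in the promoters of many of these genes. The melanosome of pigment cells is a lysosome-related organelle and shares several of these proteins.

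The arrays differed in quality by array as well as by dose. Replicate 1 at 2.5 µM and replicate 1 at 40 µM had a lower mean of the hybridisation controls (10.43 and 10.30 against 10.82 to 11.15 on the other 4). The mean of their poly-A controls was also lower (5.65 and 5.63 against 6.35 to 7.42). Their spread of gene levels was wider (interquartile range 5.20 and 5.43 against 4.90 to 4.94). Both arrays are called the replicate 1 treated arrays below. For many, but not all, of the genes whose change at 40 µM leaned on them it is also given without replicate 1. Background was measured on negative control features, whose 95th percentile had a mean over arrays of 9.94 (log2). All 7 pigment cell markers (such as Mlana, Pmel and Tyr) lay above it on all 6 arrays, and all 29 markers of macrophages and leukocytes, fibroblasts, keratinocytes and endothelium lay below it on every array, with 7.14 as the highest value. The defining macrophage markers, of a cell type rich in lysosomes, were thus at background.

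Promoter sequences are shown because the CLEAR element is the known shared feature of this gene group. A higher share among the members was therefore known beforehand, and the shares below are a description and no test. RefSeq promoter windows (GRCm38.p6, 250 bases before to 50 after a gene's start) were found for 30 of the 38 members. The letters TCACGTG, which form most of the CLEAR element and contain the E-box CACGTG, were searched on both strands, so that a palindromic site counts once. They were present in 9 of the 30 genes (30%), against 5.21% of the 15691 array genes with a window and 3.77% of all 32851 windows. The 9 genes were Atp6v0b, Atp6v0d1, Atp6v0e and Atp6v1a of the pump, and Ctsa, Gla, Gaa, Lamp1 and Mcoln1. The shorter CACGTG was in 10 of 30 (33.3%, against 9.26% of array genes), Ctsl being the addition, and TCATGTG, the core of the M-box bound by MITF, was in 3 of 30 (10%, against 3.52%). A match is a description of the letters and shows no binding.

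The windows of 5 members are printed with TCACGTG, or its reverse complement, in capitals. They are Lamp1 with 4 sites, the most among the member windows, Gla and Atp6v0b with 2 each, Atp6v0e with 1 at its start, and Lipa, the member with the smallest p at 40 µM, with none. Lamp1 is at chr8:13158911-13159210 on the plus strand, Gla at chrX:134600956-134601255 on the minus strand, Atp6v0b at chr4:117887280-117887579 on the minus strand, Atp6v0e at chr17:26676146-26676445 on the plus strand and Lipa at chr19:34527425-34527724 on the minus strand. Each window spans the gene's start and is written 5′ to 3′ on the gene's strand.
Lamp1: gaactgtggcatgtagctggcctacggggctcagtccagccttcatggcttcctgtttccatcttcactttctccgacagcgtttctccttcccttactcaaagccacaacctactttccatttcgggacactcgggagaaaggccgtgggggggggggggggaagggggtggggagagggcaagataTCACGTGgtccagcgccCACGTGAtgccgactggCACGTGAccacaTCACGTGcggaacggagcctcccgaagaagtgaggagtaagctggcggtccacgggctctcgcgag
Gla: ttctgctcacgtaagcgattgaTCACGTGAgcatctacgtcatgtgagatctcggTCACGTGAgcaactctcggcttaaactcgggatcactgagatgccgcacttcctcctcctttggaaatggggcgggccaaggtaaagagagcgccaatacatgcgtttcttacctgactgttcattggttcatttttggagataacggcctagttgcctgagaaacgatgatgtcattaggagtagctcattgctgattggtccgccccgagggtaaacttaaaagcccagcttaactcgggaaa
Atp6v0b: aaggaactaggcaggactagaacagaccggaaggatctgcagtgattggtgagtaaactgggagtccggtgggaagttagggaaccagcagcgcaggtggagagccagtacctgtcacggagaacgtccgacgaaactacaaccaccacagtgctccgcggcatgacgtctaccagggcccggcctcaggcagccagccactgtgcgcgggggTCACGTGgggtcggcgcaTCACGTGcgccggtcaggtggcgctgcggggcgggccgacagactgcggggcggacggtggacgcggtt
Atp6v0e: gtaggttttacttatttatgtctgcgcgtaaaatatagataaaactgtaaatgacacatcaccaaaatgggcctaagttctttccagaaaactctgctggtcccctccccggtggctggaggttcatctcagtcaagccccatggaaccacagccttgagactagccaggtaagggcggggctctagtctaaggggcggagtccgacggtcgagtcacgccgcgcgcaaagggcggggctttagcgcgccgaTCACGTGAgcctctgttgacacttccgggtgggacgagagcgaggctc
Lipa: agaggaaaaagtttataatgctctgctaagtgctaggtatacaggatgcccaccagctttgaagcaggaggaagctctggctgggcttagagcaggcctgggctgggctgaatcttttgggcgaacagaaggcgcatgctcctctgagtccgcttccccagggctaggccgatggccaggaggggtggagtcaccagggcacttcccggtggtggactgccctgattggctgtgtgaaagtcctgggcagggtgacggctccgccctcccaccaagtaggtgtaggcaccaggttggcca
Counted from the start of the gene, the cores of the Lamp1 sites began at -61, -45, -28 and -15, those of Atp6v0b at -36 and -18, and those of Gla farther out at -227 and -194. The 9 genes with a site did not share a direction at 40 µM. Atp6v0b, Atp6v0e and Gla, the 3 with a log2 change above 0, had all values below background, and the other 6 had changes from -0.16 (Gaa) to -0.01 (Atp6v0d1).

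Cells at 40 µM were set against control cells first, to ask which of these genes the higher dose changed. No member passed over all genes tested, and neither did any other gene (limma, 0% of 19505 genes at an adjusted p under 0.05). At an unadjusted p under 0.05, 2 of 38 members were higher and none was lower, against 5.18% of all genes higher and 6.86% lower, a share near that of all genes. The 2 were Lipa and Gla, both enzymes. Standard errors of the members' log2 changes ran from 0.147 to 0.597, with a median of 0.257. The calls depended on which arrays were kept. Without replicate 2 at 40 µM, 2235 genes and 7 members passed (limma, Atp6v1d, Atp6v1e1, Atp6v1g1, Gla, Asah1 and Lipa higher, Psap lower), and here the remaining 40 µM array borrows its spread from control and 2.5 µM. Without both replicate 1 treated arrays, 3749 genes and 4 members passed (Lipa and Lamp2 higher, Atp6v0d1 and Ctsl lower), with the error taken from the 2 control arrays alone. Lipa was the member named in both sets.

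Lipa encodes lysosomal acid lipase, which splits cholesteryl esters and triglycerides taken up by the cell. It lay at 10.87 and 10.62 in control, at 10.86 and 10.80 at 2.5 µM, and at 11.70 and 11.60 at 40 µM. Both 40 µM arrays were thus above all 4 others, and the 2.5 µM arrays lay within the range of the controls. The log2 change at 40 µM was 0.90 with a standard error of 0.19 (1.87-fold, 95% confidence interval 0.46 to 1.35 on the log2 scale, limma unadjusted p = 0.00196, adjusted p = 0.334). The change of 40 µM against 2.5 µM was 0.82 (limma unadjusted p = 0.00326, adjusted p = 0.854), and within the same replicate number it was 0.85 for replicate 1 and 0.80 for replicate 2. Under the 16 alternative settings its change at 40 µM against control stayed between 0.77 and 1.03, with an unadjusted p under 0.05 in all 16 and an adjusted p from 0.00379 to 0.99. Without both replicate 1 treated arrays it was 0.85.

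Gla encodes alpha-galactosidase A, which removes galactose from glycolipids. Its levels were 7.72 and 7.56 in control, 8.40 and 8.51 at 2.5 µM, and 9.25 and 7.96 at 40 µM. Every treated array was above both controls, but all 6 values lay below the 9.94 of the negative controls. The log2 change was 0.97 with a standard error of 0.40 at 40 µM (limma unadjusted p = 0.0443, adjusted p = 0.408) and 0.82 at 2.5 µM (unadjusted p = 0.0776). At 40 µM the difference rested largely on replicate 1. Without that array it was 0.32, with an unadjusted p of 0.158.

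**Figure D1:**
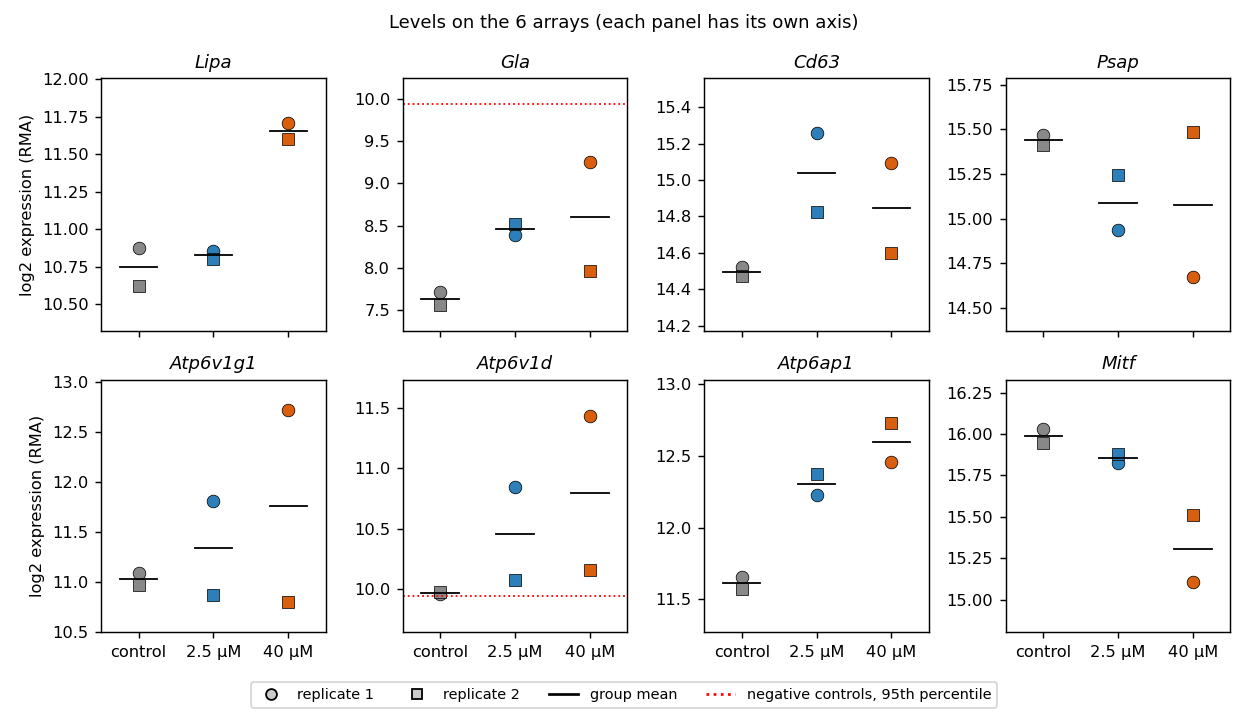
Log2 expression (RMA) of 8 genes on the 6 arrays, by group, with circles for replicate 1, squares for replicate 2 and a line for the group mean. Each panel has its own axis, and the dotted line, drawn for Gla and Atp6v1d, is the 95th percentile of the negative controls. Both 40 µM values of Lipa lie above the other 4, whereas Atp6v1g1 and Atp6v1d are high on the replicate 1 treated arrays and near control on the replicate 2 arrays.

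Among the proteases, no cathepsin passed with all 6 arrays in the fit. Leaving out both replicate 1 treated arrays keeps 1 array per dose, so only sizes of change are given for it here. Ctsl was then -0.34 against control at 40 µM. Ctsz was 0.30 against control at 2.5 µM and -0.32 at 40 µM against 2.5 µM. Ctsl (cathepsin L, a cysteine protease) lay at 11.75 and 11.82 in control, 12.21 and 11.70 at 2.5 µM and 12.66 and 11.44 at 40 µM. The 40 µM values of Ctsl thus lay on either side of control, and its change of 0.27 turned to -0.34 without replicate 1. Ctsz (cathepsin Z, a carboxypeptidase) lay at 12.72 and 12.70 in control, 13.35 and 13.01 at 2.5 µM and 13.45 and 12.69 at 40 µM. Both 2.5 µM arrays and replicate 1 at 40 µM were thus above control. The log2 change of Ctsz at 40 µM was 0.35, and -0.02 without replicate 1. Ctsb (cathepsin B) had log2 changes of 0.12 at 40 µM and 0.27 at 2.5 µM, with both 2.5 µM arrays above both controls, and the change at 40 µM was -0.09 without replicate 1. Ctsa (cathepsin A, which also shields neuraminidase and beta-galactosidase) differed by -0.08 at 40 µM, with a 95% confidence interval from -0.60 to 0.43, and by 0.14 without replicate 1.

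Of the enzymes of glycans and lipids, Hexa (the alpha subunit of beta-hexosaminidase) stayed close to control on every array. It lay at 13.86 and 13.96 in control, 13.93 and 13.93 at 2.5 µM and 13.92 and 13.86 at 40 µM, a log2 change of -0.02 at 40 µM with a 95% confidence interval from -0.40 to 0.35. Gaa, the acid alpha-glucosidase that degrades glycogen, lay at 16.14 and 16.16 in control and at 15.87 and 16.12 at 40 µM, both just below control (log2 change -0.16, interval -0.54 to 0.21, and -0.04 without replicate 1). Neu1, a sialidase, stayed below background on every array (7.37 to 7.67). Asah1, the acid ceramidase, lay at 12.63 and 12.69 in control, 13.17 and 13.17 at 2.5 µM, and 13.77 and 12.49 at 40 µM. Its 2.5 µM arrays were both above control, while the 40 µM arrays lay on either side of it. The log2 change of Asah1 at 40 µM was 0.47, and -0.17 without replicate 1. Psap encodes the precursor of the saposins, which present sphingolipids to these hydrolases. It lay at 15.47 and 15.41 in control, 14.94 and 15.24 at 2.5 µM and 14.67 and 15.48 at 40 µM, lowest on the replicate 1 treated arrays (log2 change at 40 µM -0.36, standard error 0.275, and 0.04 without replicate 1).

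The 5 membrane proteins showed no shared direction. Cd63, a tetraspanin of lysosomes and melanosomes, lay at 14.52 and 14.47 in control, 15.26 and 14.82 at 2.5 µM and 15.09 and 14.60 at 40 µM. All 4 treated arrays were above both controls. Its log2 change was 0.54 at 2.5 µM (limma unadjusted p = 0.0508, adjusted p = 0.518) and 0.35 at 40 µM (unadjusted p = 0.175). On the replicate 2 arrays alone Cd63 was 0.33 above control at 2.5 µM and 0.10 at 40 µM. Lamp2, with Lamp1 the most abundant kind of glycoprotein of the lysosomal membrane, was also above both controls on all 4 treated arrays, at 16.92 and 17.04 at 2.5 µM and 16.88 and 16.99 at 40 µM against 16.76 and 16.80 in control. The changes of Lamp2 were small, 0.20 at 2.5 µM and 0.16 at 40 µM with a standard error of 0.15. Lamp1 lay at 14.96 and 14.97 in control, 14.68 and 14.82 at 2.5 µM and 14.49 and 15.12 at 40 µM. Mcoln1, the calcium channel TRPML1, lay at 10.77 and 10.75 in control and at 10.21 and 11.02 at 40 µM. Lamp1 and Mcoln1 were thus both below control on replicate 1 at 40 µM and above it on replicate 2. Scarb2 (LIMP-2, which carries glucocerebrosidase to the lysosome) lay at 10.62 and 10.88 at 2.5 µM, above both controls at 10.23 and 10.45, and at 10.37 and 10.29 at 40 µM, within their range.

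**Figure D2:**
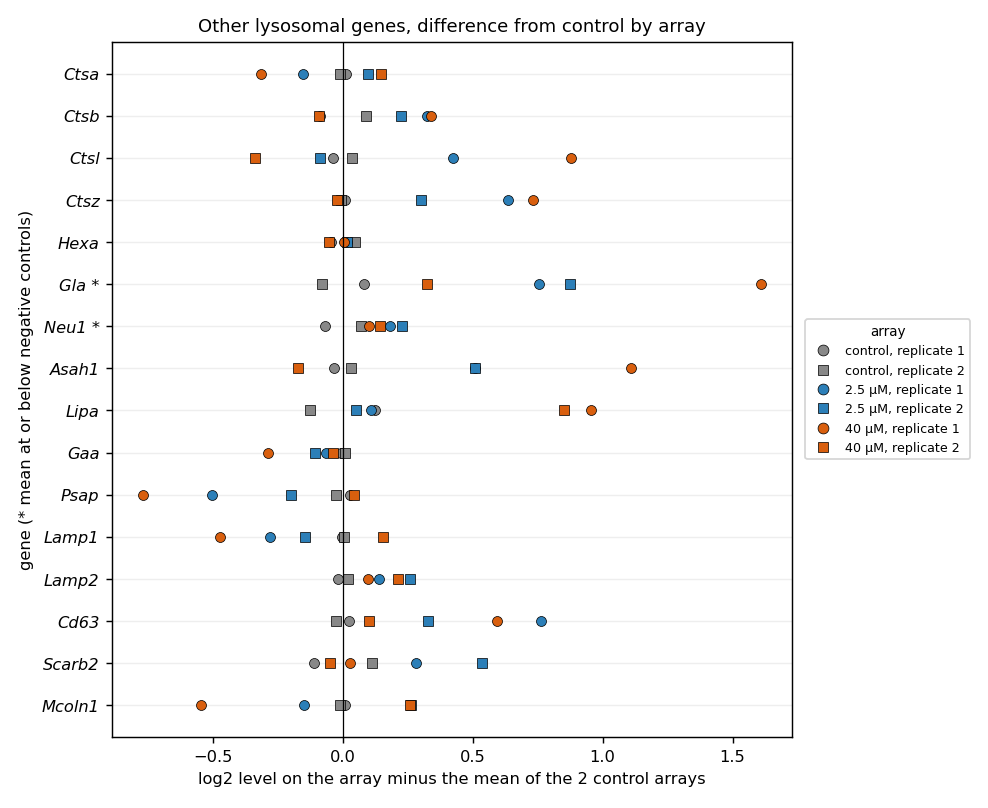
Difference of the log2 level on each array from the mean of the 2 control arrays, for the 16 lysosomal genes other than pump genes; grey marks control, blue 2.5 µM and orange 40 µM, circles replicate 1 and squares replicate 2. Lipa is the gene whose 40 µM values stand together above the rest, and an asterisk marks Gla and Neu1, whose mean lay below the negative controls.

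The pump genes were told apart first by whether their level lay above background, the 95th percentile of the negative controls. The median of these controls was 5.98 to 6.10 on the arrays, so a level below background does not show that a gene is silent. In the catalytic hexamer, Atp6v1a and Atp6v1b2 lay above background on all 6 arrays and the kidney-type Atp6v1b1 on none. Among the stalk subunits, Atp6v1c1, Atp6v1e1 and Atp6v1g1 were above it on all 6 arrays, and their tissue-restricted counterparts Atp6v1c2, Atp6v1e2, Atp6v1g2 and Atp6v1g3 on none. In V0, Atp6v0a1, Atp6v0a2, Atp6v0d1 and Atp6v0e2 were above it on all 6 arrays, and Atp6v0a4, Atp6v0d2, Atp6v0b and Atp6v0e on none. In all, 10 of the 22 pump genes were above background on all 6 arrays and 10 on none, with Atp6v1d and Atp6v1f on 5 arrays. Over all 19505 genes, 3629 were above it on all 6 arrays and 14694 on none. The below-background isoforms ranged over all arrays from 3.50 to 3.99 for Atp6v1b1, 4.55 to 5.13 for Atp6v1c2, 4.91 to 5.83 for Atp6v1e2, 5.26 to 6.42 for Atp6v1g2, 4.49 to 5.59 for Atp6v1g3, 4.21 to 4.68 for Atp6v0a4 and 3.36 to 4.20 for Atp6v0d2. Atp6v0e lay at 7.56 and 7.46 in control, 8.88 and 7.48 at 2.5 µM and 8.60 and 7.53 at 40 µM, again highest on the replicate 1 treated arrays. Its log2 change at 40 µM was 0.55, and 0.02 without replicate 1. At neither dose did an isoform below background in control reach the level of the negative controls.

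At 40 µM, 13 of 22 pump genes had a log2 change above 0, against 48.7% of all genes, with a median of 0.14 against -0.01 over all genes. Among the 12 pump genes with a mean above background 8 had a change above 0, against 55.9% of all such genes. Among the 26 members of both kinds with such a mean it was 15. No pump gene had an unadjusted p under 0.05. The groups did not overlap for 5 pump genes that were higher and 2 that were lower, against 22.2% and 26.3% of all genes. The split between the 2 replicates was wider than the difference between the groups. The median against control was 0.35 on replicate 1 at 40 µM and -0.04 on replicate 2, and 0.18 on replicate 1 at 2.5 µM and -0.02 on replicate 2.

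Atp6v1g1, a stalk subunit that links the sectors, showed the split most plainly. It lay at 11.09 and 10.97 in control, 11.81 and 10.87 at 2.5 µM and 12.72 and 10.79 at 40 µM. The replicate 1 treated arrays were the highest 2 and the replicate 2 treated arrays the lowest 2 of all 6. Its log2 change at 40 µM was 0.73 with a standard error of 0.60, and -0.23 without replicate 1 at 40 µM. Atp6v1d, a subunit of the rotating axle, lay at 9.96 and 9.97 in control, 10.85 and 10.07 at 2.5 µM and 11.43 and 10.16 at 40 µM. All 4 treated arrays were above control, with replicate 1 far higher at both doses (log2 change at 40 µM 0.83, standard error 0.43, limma unadjusted p = 0.0964). Without replicate 1 at 40 µM the change of Atp6v1d was 0.20. Atp6v1e1, of the peripheral stalk, lay at 11.71 and 11.75 in control, 12.31 and 11.71 at 2.5 µM and 12.79 and 11.86 at 40 µM. Its change at 40 µM was 0.59, and 0.12 without replicate 1. Atp6v1f, a small axle subunit, was at 11.03 and 10.75 on the replicate 1 arrays at 2.5 µM and 40 µM and between 9.77 and 10.13 on the other 4. The change of Atp6v1f at 40 µM was 0.27, and -0.08 without replicate 1. Atp6v0b, a proteolipid of the membrane ring with 2 sites in its promoter, lay at 7.46 and 7.47 in control, 8.19 and 6.97 at 2.5 µM and 9.30 and 7.70 at 40 µM. It had the largest fold at 40 µM among the members, 2.05, with a standard error of 0.57 on the log2 scale and all values below background. Without replicate 1 at 40 µM its log2 change went from 1.04 to 0.24.

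Atp6v1a of the catalytic hexamer and Atp6v0a1, the large V0 subunit, were not highest on the replicate 1 treated arrays. Atp6v1a, which binds ATP, lay at 12.49 and 12.26 in control, 12.11 and 12.36 at 2.5 µM and 12.30 and 12.42 at 40 µM, with overlapping groups in all 3 comparisons. Atp6v0a1, which forms the proton path, lay at 14.83 and 14.81 in control, 14.66 and 14.69 at 2.5 µM and 14.81 and 14.78 at 40 µM, a log2 change at 40 µM of -0.03 with a 95% confidence interval from -0.39 to 0.33. Atp6v1b2, the B subunit of the hexamer, was above both controls on all 4 treated arrays. It lay at 13.53 and 13.45 in control, 14.10 and 13.73 at 2.5 µM and 13.82 and 13.66 at 40 µM (log2 change 0.42 at 2.5 µM, limma unadjusted p = 0.0618, and 0.25 at 40 µM, unadjusted p = 0.233). On the replicate 2 arrays alone Atp6v1b2 was 0.24 above control at 2.5 µM and 0.17 at 40 µM. Atp6v0d1, the collar subunit, and Atp6v1c1, which joins stalk and ring, had 40 µM values on either side of control, at 13.16 and 12.38 and at 12.86 and 12.05. Atp6v0a2 lay between 10.82 and 11.16 and Atp6v0e2 between 10.92 and 11.25 on all arrays. These and Atp6v1h, a regulator of coupling, had log2 changes between -0.03 and 0.18 at 40 µM. Atp6v1b2, Atp6v0d1, Atp6v1c1, Atp6v0e2 and Atp6v1h were, like the split genes above, highest on the replicate 1 treated arrays.

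**Figure D3:**
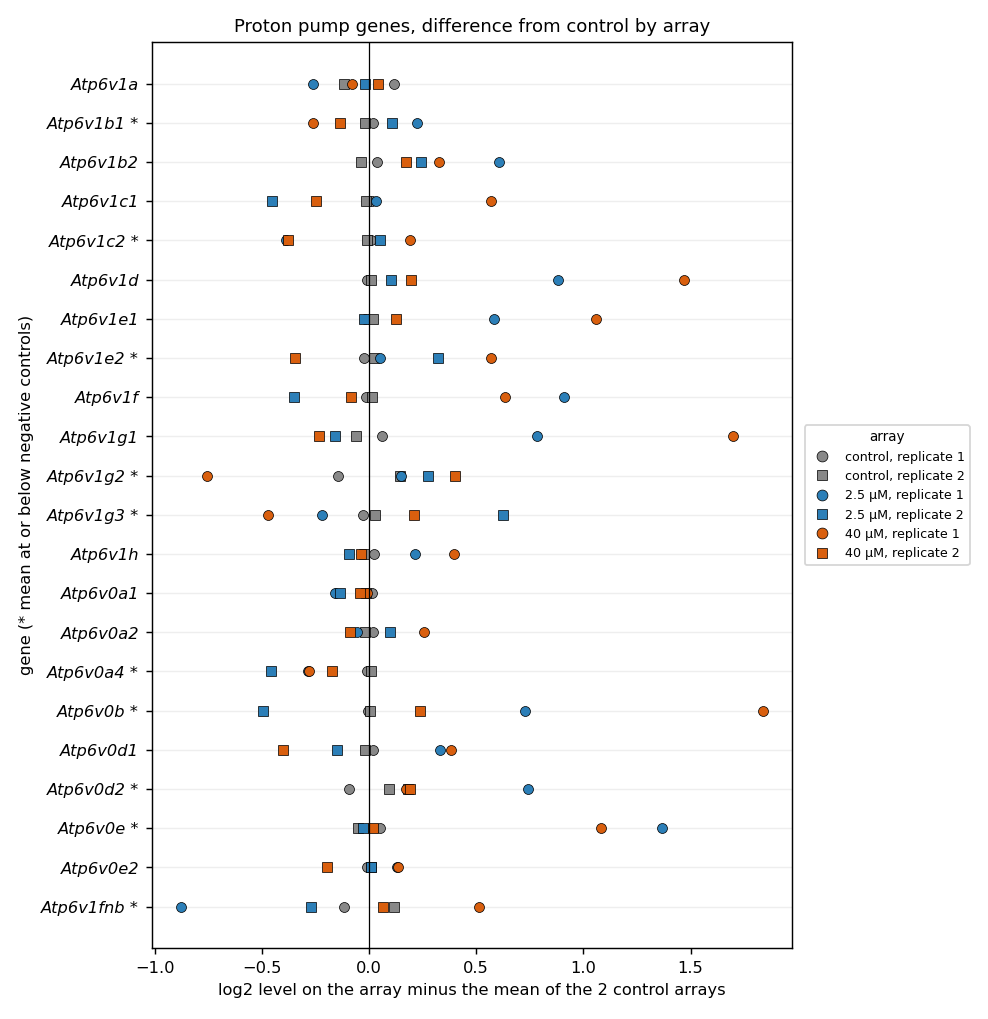
Difference of the log2 level on each array from the control mean for the 22 genes of the pump's symbol pattern, V1 genes above V0 genes, with colours for dose and shapes for replicate; an asterisk marks a mean below the negative controls. The values farthest to the right are circles, the replicate 1 treated arrays, led by Atp6v0b at 1.84 on replicate 1 at 40 µM.

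Read array by array, 11 of 22 pump genes were higher on both replicate 1 treated arrays than on all other arrays, against 16.2% of all genes, and 1 was lower on both, against 14.8%. Among the 12 pump genes with a mean above background, 9 were highest on these 2 arrays and none was lowest, against 28.8% and 14.6% of the 4147 genes of that kind. The other lysosomal genes did not lean one way. Of 16, 4 were highest on these arrays (Ctsb, Ctsl, Ctsz and Cd63) and 4 lowest (Ctsa, Psap, Lamp1 and Mcoln1). For the 14 with a mean above background, the medians against control were 0.12 and 0.06 on replicate 1 at 2.5 µM and 40 µM and 0.16 and 0.01 on replicate 2. The same 2 arrays had the low hybridisation and poly-A controls given above, whose part in these differences was not tested. This pattern was noticed in these values and has no test.

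**Figure D4:**
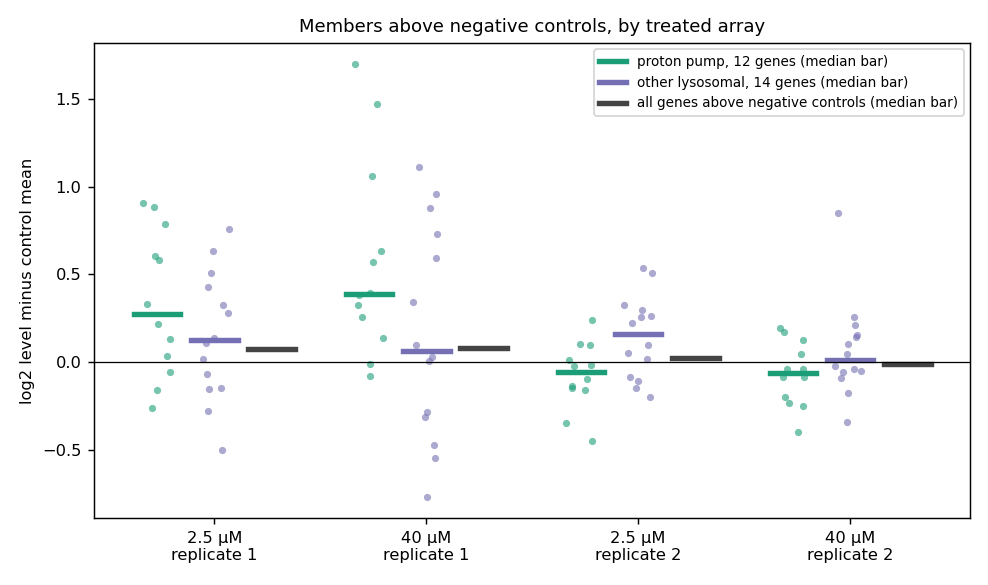
Difference from the control mean of the members with a mean above the negative controls, on each treated array, as points, with bars for the medians of the 12 pump genes, the 14 other lysosomal genes and all genes above the negative controls. The pump median is 0.27 and 0.39 on the replicate 1 arrays and -0.06 on both replicate 2 arrays, whereas the median of all such genes stays between -0.01 and 0.08.

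The lower dose was compared with control for the same genes, using the same 2 control arrays. No member passed (0% of all genes at an adjusted p under 0.05), and none had an unadjusted p under 0.05 (limma), against 4.24% of all genes higher and 5.38% lower. These p-values use a spread pooled over all groups, including the arrays of the higher dose. Fitted array weights were 3.25 for control, 0.78 at 2.5 µM and 0.40 at the higher dose. A lower weight marks a wider spread. With these weights, 7 members had an unadjusted p under 0.05 at 2.5 µM (limma, 6 higher and 1 lower), and none passed. The share of all genes was not computed for that fit. The member count thus changed with how the spread was estimated, and whether the count over all genes changed alike is not known. Of 38 members, 28 had a log2 change above 0, against 51.2% of all genes, and of the 26 with a mean above background 19 did, against 57.8% of such genes. The median was 0.14 for the pump genes and 0.18 for the other lysosomal genes, against 0.01 over all genes. Both 2.5 µM arrays were above both controls for 15 members and below them for 6, against 27.1% and 25.9% of all genes. Of the 16 lysosomal genes other than pump genes, 8 were above control on both arrays (Ctsb, Ctsz, Gla, Neu1, Asah1, Lamp2, Cd63 and Scarb2) and 3 below (Gaa, Psap and Lamp1). For the pump the median turned to -0.02 without replicate 1 at 2.5 µM, while for the other lysosomal genes it was 0.22 without that array.

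The comparison of 40 µM with 2.5 µM asked whether the doses differed. No member passed (0% of all genes at an adjusted p under 0.05), and 2 had an unadjusted p under 0.05 as higher, Lipa and Atp6v1fnb, against 2.34% of all genes, with none lower against 3.28%. Atp6v1fnb lay between 4.14 and 5.53 on all arrays, below background, so its difference is between background values. Scarb2 was lower at 40 µM than at 2.5 µM on both arrays (log2 change -0.42, limma unadjusted p = 0.0749). Of 38 members, 16 had a log2 change above 0, against 49.6% of all genes, and of the 26 above background 11 did, against 50.6%. Groups did not overlap for 4 members that were higher and 4 that were lower, against 12.4% and 16.3% of all genes. Within the replicate 1 arrays, 15 of 22 pump genes were higher at 40 µM than at 2.5 µM with a median difference of 0.16, and within the replicate 2 arrays 13 of 22 with 0.05. For the other lysosomal genes the counts were 6 of 16 and 5 of 16, with medians of -0.06 and -0.08.

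Genes that assemble or regulate the pump but lie outside the symbol pattern were measured for 13 of 13 names. At 40 µM, 1 was higher and 1 lower at an unadjusted p under 0.05, against 5.18% and 6.86% of all genes. Atp6ap1, the accessory subunit Ac45 of the assembled pump, lay at 11.66 and 11.57 in control, 12.23 and 12.38 at 2.5 µM and 12.46 and 12.73 at 40 µM. The 3 groups did not overlap. Its replicate 2 value was the higher one at both doses, as for Atp6v1a and unlike the pump genes highest on the replicate 1 treated arrays. Its log2 change was 0.98 with a standard error of 0.19 at 40 µM (1.97-fold, limma unadjusted p = 0.00121, adjusted p = 0.334) and 0.69 at 2.5 µM (unadjusted p = 0.00803, adjusted p = 0.479). Over 16 alternative settings the change at 40 µM stayed between 0.84 and 1.12, with an unadjusted p under 0.05 in all 16. Dmxl2, of the RAVE-like complex that rejoins V1 and V0, was lower, at 14.71 and 15.10 at 40 µM against 15.52 and 15.48 in control (log2 change -0.60, limma unadjusted p = 0.0250, adjusted p = 0.373). Over 16 alternative settings this change lay between -0.79 and -0.40.

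Of 33 other hydrolases measured, 4 were higher and 1 lower at 40 µM at an unadjusted p under 0.05, against 5.18% and 6.86% of all genes. Scpep1, a serine carboxypeptidase, was the one above background, at 15.88 and 15.49 at 40 µM against 15.12 and 15.15 in control (log2 change 0.55, limma unadjusted p = 0.0268, and 0.36 without replicate 1). At 2.5 µM, 1 was higher and 3 lower, against 4.24% and 5.38% of all genes. One of the 3 was Gm2a, the activator of ganglioside breakdown, at 11.89 and 11.70 against 12.39 and 12.23 (unadjusted p = 0.0253). Of 24 other membrane proteins, 3 were higher and none lower at 40 µM, against 5.18% and 6.86% of all genes. Laptm4a lay at 15.45 and 15.52 against 14.94 and 14.85 in control (log2 change 0.59, unadjusted p = 0.0120), and Lmbrd1, which takes part in cobalamin export, at 13.91 and 13.76 against 13.36 and 13.30 (log2 change 0.50, unadjusted p = 0.0188).

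Of the factors that bind the CLEAR element, those above background, Mitf and Tfe3, were not higher at 40 µM. Mitf lay at 16.03 and 15.95 in control, 15.83 and 15.88 at 2.5 µM and 15.10 and 15.51 at 40 µM, below both controls on all 4 treated arrays (log2 change -0.68 at 40 µM, limma unadjusted p = 0.00758, adjusted p = 0.349). Tfe3 lay at 10.55 and 10.53 in control and at 10.31 and 10.57 at 40 µM, with overlapping groups, and Tfeb (7.32 to 7.83) and Tfec (4.01 to 4.57) lay below background on all arrays. Of the 21 genes of this factor family and of mTORC1 signalling at the lysosome, 1 was higher and 2 lower at 40 µM at an unadjusted p under 0.05, against 5.18% and 6.86% of all genes. Flcn (folliculin, a regulator of Rag GTPases) was lower on both 40 µM arrays than on either control (log2 change -0.48, limma unadjusted p = 0.0396, adjusted p = 0.402).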

How the data were processed

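The authors deposited log2 expression values made with RMA, which corrects background, quantile-normalizes arrays and summarises features. The deposited gene levels still differed in spread between arrays, with interquartile ranges from 4.90 to 5.43. Per the submitters' processing notes the tools were RMA, Transcriptome Analysis Console and Affymetrix Expression Console, with versions, filters and build not given in the sources used here. The values reach 19.88, above the maximum of a 16-bit scan, through a step not given, so folds are on the deposited scale. Of 22206 transcript clusters, 19572 had exactly 1 gene symbol in the platform annotation, and the brightest cluster stood for a gene, with no filter on level. Arrays have no read depth, and their number limits the precision. Limma 3.58.1 in R 4.3.3 modelled the 6 arrays by their group means, without covariates, under a trended variance prior (3 residual degrees of freedom, prior worth 4.11), two-sided, with Benjamini-Hochberg adjustment over 19505 genes and a threshold of 0.05. The fit was tested on simulated data. Confidence intervals are 95% intervals from this fit. All members are accounted for, and a gene of another list was named only if its p was among the 3 smallest of that list in a comparison and a group mean lay above the negative controls, with MiT/TFE factors always given. Members, lists and tests were chosen with earlier results of these data known. Alternatives left out arrays, added blocks or weights, renormalized, filtered low genes or averaged clusters.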

Additional observations from a re-analysis of the deposited data

How the results depend on the processing

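With 6 arrays, the counts of calls depended on which arrays were kept, and the cause was not tested. The share of all genes at an unadjusted p under 0.05 was not computed for these settings. Member counts at that level therefore cannot be set against all genes and show only how far they move. With single arrays left out in turn, the genes passing at 40 µM against control ranged from 0 to 2235, the members passing from 0 to 7 and the members at an unadjusted p under 0.05 from 1 to 17 (limma, 2 with all arrays). That member count ranged from 0 to 8 at 2.5 µM (0 with all arrays) and from 1 to 13 for 40 µM against 2.5 µM (2 with all arrays). The pump median ranged from -0.039 to 0.35, from -0.021 (without replicate 1 at 2.5 µM) to 0.18, and from -0.18 (without replicate 1 at 40 µM) to 0.31 in these 3 comparisons. The median of the other lysosomal genes ranged from 0.044 to 0.18, from 0.16 to 0.22 and from -0.065 to -0.040. Without both replicate 1 treated arrays, where only the controls give an error, 3749, 3991 and 2965 genes passed, with 4, 11 and 7 members, and 10, 16 and 13 members at an unadjusted p under 0.05. The pump median at 2.5 µM was then -0.021, and the other lysosomal medians were 0.073 at 40 µM and 0.22 at 2.5 µM. With that array split as a block, 1 gene passed for 40 µM against 2.5 µM, the member counts were 1, 5 and 5, the pump median was 0.0035 at 40 µM and -0.077 at 2.5 µM, and the other lysosomal median at 40 µM was 0.087. After a second quantile normalization the pump median at 40 µM was 0.051, the other lysosomal medians were -0.0095, 0.10 and -0.089, and the member counts at 40 µM and 2.5 µM were 1 and 1. Centring each array on its median gave 0.16 for that median at 40 µM, and array weights gave 7 members at 2.5 µM. Filters on low genes (the median level, or negative controls on 2 or more arrays) gave 1 member at 40 µM against control and 1 against 2.5 µM, and the second gave other lysosomal medians of 0.056 and 0.12 at 40 µM and 2.5 µM.

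The replicate numbers did not pair control arrays with treated arrays, whereas same-numbered arrays of both doses deviated partly together. Deviations of same-numbered arrays correlated at -0.0045 between control and 2.5 µM, -0.0121 between control and 40 µM and 0.386 between the doses. With a replicate block, 5 members at 40 µM and 2 at 2.5 µM had an unadjusted p under 0.05, and none passed after adjustment (limma). Here too the share of all genes at that level was not computed.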

Other observations

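Other steps of lysosome biology were measured by lists of sorting, fusion and damage genes. Of 10 genes for the mannose 6-phosphate tag and its receptors, none was higher and 1 lower at 40 µM at an unadjusted p under 0.05, against 5.18% and 6.86% of all genes, the shares that also hold for the 40 µM counts below. That gene, Igf2r, the large mannose 6-phosphate receptor, lay at 12.87 and 13.34 at 40 µM against 13.68 and 13.68 in control (log2 change -0.57, and -0.34 without replicate 1, limma unadjusted p = 0.0284, adjusted p = 0.379). Of 14 genes for fusion and positioning, 4 were higher and 1 lower. Vps11, of the HOPS tethering complex, lay at 10.16 and 10.37 at 40 µM and 10.43 and 10.46 at 2.5 µM against 10.91 and 10.88 in control, below control on all 4 treated arrays (log2 change at 40 µM -0.63, unadjusted p = 0.0117). Bloc1s1, shared by complexes that move lysosomes and build melanosomes, lay at 11.23 and 9.86 at 40 µM, 10.17 and 8.99 at 2.5 µM and 9.09 and 9.30 in control, highest on the replicate 1 treated arrays. Its log2 change at 40 µM was 1.35, and 0.67 without replicate 1. Of 7 genes of the response to lysosome damage, none passed that level at 40 µM, and 1 was higher at 2.5 µM, against 4.24% of all genes. Lgals8, a galectin that binds glycans exposed by damaged membranes, lay at 13.03 and 13.05 at 2.5 µM against 12.42 and 12.36 in control (log2 change 0.65, unadjusted p = 0.0128, adjusted p = 0.479), and at 12.46 and 12.86 at 40 µM.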
